A study of Mus musculus with 8 samples.

Results

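The inflammasome and interleukin-1 (IL-1) genes described here were 10 genes chosen by symbol: the sensors Nlrp3, Nlrc4 and Aim2, the adaptor Pycard, the caspases Casp1 and Casp4, the pore-forming protein Gsdmd, the cytokines Il1b and Il18, and the IL-1 receptor antagonist Il1rn. All 10 were found among the 16486 genes of the deposited table. Their values were available in 8 bulk RNA-Seq libraries of mouse blood monocytes (MCs), 4 of CD11b+Ly6G-Ly6Chigh and 4 of CD11b+Ly6G-Ly6Clow MCs isolated by flow cytometry sorting. Control (CT) mice were male C57/BL6 mice and gave 2 libraries per subset. T1DM mice were male C57/BL6 mice given streptozotocin (STZ), which destroys pancreatic beta cells, in 5 daily doses of 50 mg/kg starting at 8 weeks of age, and gave 1 library per subset. T2DM mice were male db/db mice, which carry a homozygous mutation of the leptin receptor and become obese and hyperglycemic, and gave 1 library per subset. Mice were studied at 20 to 22 weeks of age, and RNA of 5 mice per group was pooled before sequencing. The CT libraries of a subset were sequenced from pooled RNA, so that the spread between them may be technical only. P-values in the CT libraries alone rest on this spread. In the fit of mouse group and subset over 8 libraries, p-values also rest on how far the subset difference varied between mouse groups. The CT libraries came from a NextSeq 500 sequencer and all diabetic libraries from a HiSeq 4000, and wherever diabetic MCs are compared with CT MCs the sequencer and the disease cannot be told apart.

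An inflammasome is a protein complex that assembles in the cytosol when a sensor meets a microbial product or a sign of cell damage. NLRP3 responds to potassium efflux and many kinds of membrane stress, NLRC4 to bacterial flagellin and secretion system proteins bound by NAIP proteins, and AIM2 to cytosolic DNA, and the adaptor ASC (gene Pycard) links sensors to caspase-1 (Casp1). Caspase-1 cleaves the precursors of IL-1 beta and IL-18 and the pore protein gasdermin D (Gsdmd), caspase-11 (Casp4 in the mouse) cleaves gasdermin D in response to cytosolic lipopolysaccharide, and the antagonist encoded by Il1rn occupies the IL-1 receptor without signaling. In myeloid cells Nlrp3 and Il1b are known as genes whose transcription is induced before an inflammasome is assembled. An mRNA level measures neither assembly nor cleavage.

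Values are the log2 expression values of the authors, 1 unit of which is a 2-fold difference. The labels give 1 round number of reads for every sample, and the files hold no counts, so how many reads support each value cannot be given and the gap between the CT libraries of a subset is the only direct measure of its precision. Over all genes this gap had a median of 0.257 in Ly6Chigh and 0.247 in Ly6Clow MCs. For the 10 genes it ran from 0.018 (Casp1) to 0.392 (Casp4) in Ly6Chigh MCs and from 0.071 (Il18) to 0.762 (Nlrp3) in Ly6Clow MCs.

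Positions and promoter sequences of the genes were taken from RefSeq for GRCm38.p6, the build that the labels name as mm10. Casp1 (chr9:5298517-5307281, plus strand) and Casp4 (chr9:5308849-5336791, plus strand) are neighbors, with 1567 bases between the end of Casp1 and the start of Casp4. Nlrp3 lies at chr11:59541569-59566955 and Il1rn at chr2:24336860-24351491, both on the plus strand, and Il1b lies on the same chromosome as Il1rn at chr2:129364569-129371164 on the minus strand. The other members are Pycard (chr7:127991373-127993867, minus strand), Gsdmd (chr15:75862144-75867408), Nlrc4 (chr17:74426255-74459144, minus strand), Il18 (chr9:50554700-50581841, plus strand) and Aim2 (chr1:173349547-173466040, plus strand). The 250 bases before the first annotated start are printed 5′ to 3′ for Nlrp3 and Il1rn, the members that differed most between the subsets, and for Casp1 and Casp4, the neighboring members whose values moved together over the mouse groups. Capitals mark matches to an NF-kB-like motif (GGGA, any 4 bases, then CC), searched on both strands; NF-kB is the transcription factor known for inducing inflammasome and IL-1 genes.
Nlrp3, chr11:59541319-59541568, plus strand: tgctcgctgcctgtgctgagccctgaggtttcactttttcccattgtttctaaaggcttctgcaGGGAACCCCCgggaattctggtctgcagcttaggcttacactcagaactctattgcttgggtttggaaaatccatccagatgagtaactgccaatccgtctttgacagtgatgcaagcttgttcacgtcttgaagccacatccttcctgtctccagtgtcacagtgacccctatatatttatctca
Il1rn, chr2:24336610-24336859, plus strand: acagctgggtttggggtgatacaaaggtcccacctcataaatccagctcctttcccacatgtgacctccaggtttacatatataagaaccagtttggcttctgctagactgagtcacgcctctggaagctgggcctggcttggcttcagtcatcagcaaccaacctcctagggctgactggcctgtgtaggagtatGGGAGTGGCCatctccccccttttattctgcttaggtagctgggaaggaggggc
Casp1, chr9:5298267-5298516, plus strand: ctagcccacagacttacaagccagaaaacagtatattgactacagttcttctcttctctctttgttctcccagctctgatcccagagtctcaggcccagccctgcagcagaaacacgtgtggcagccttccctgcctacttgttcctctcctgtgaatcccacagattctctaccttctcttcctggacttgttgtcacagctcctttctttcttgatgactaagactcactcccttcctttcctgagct
Casp4, chr9:5308599-5308848, plus strand: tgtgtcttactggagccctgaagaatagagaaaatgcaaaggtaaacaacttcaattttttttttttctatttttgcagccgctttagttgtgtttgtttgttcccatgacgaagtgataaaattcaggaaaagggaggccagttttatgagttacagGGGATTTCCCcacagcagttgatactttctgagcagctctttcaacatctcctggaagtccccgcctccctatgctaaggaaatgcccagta
The match lay at -186 to -177 from the start in Nlrp3 (GGGAACCCCC), at -54 to -45 in Il1rn (GGGAGTGGCC) and at -92 to -83 in Casp4 (GGGATTTCCC), and this window of Casp1 held none. Promoter windows were at hand for 9 of the 10 members, with 13 starts in all. The NF-kB-like motif was found before 4 of these 13 starts (1 of Nlrp3, 1 of Il1rn and both overlapping windows of Casp4), and in 17.6% of 32817 promoter windows of the same length. GAGGAAG, a PU.1-like motif, was found before 3 starts, of Nlrp3, Pycard and Aim2 (10.6% of all windows). TTGCNNAA, a C/EBP-like motif, was found before 2 starts, of Pycard and Nlrc4 (9.57% of all windows), and an interferon response-like motif (GAAA, any 2 bases, then GAAA) before 0 of 13 (2.97% of all windows). All motifs were searched on both strands, no motif contains another, and they were chosen after the values were seen. A match is a description of letters and not of a bound site.

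The libraries were checked against cell type markers before the genes were compared. Of 6 classical MC markers, 5 were called higher in Ly6Chigh MCs (Ly6c2, Ccr2, Fn1, Vcan and F13a1), and the log2 of their summed linear values was 13.26 to 14.59 in the Ly6Chigh libraries and 10.10 to 10.43 in the Ly6Clow libraries. Of 7 nonclassical MC markers, Spn, Treml4 and Cd300e were called lower in Ly6Chigh MCs, while Nr4a1, Cx3cr1, Itgal and Ace were not called, and the fractalkine receptor gene Cx3cr1 had a log2 difference (log2FC) of 0.60 towards Ly6Chigh MCs (SE 0.17, limma adjusted p = 0.0235). The summed nonclassical level was 10.40 to 11.38 in Ly6Chigh and 11.43 to 11.88 in Ly6Clow libraries, and the subsets were closest in CT mice, with 11.38 in both Ly6Chigh libraries and 11.46 and 11.48 in the Ly6Clow libraries. They were further apart in T1DM (10.98 and 11.88) and T2DM mice (10.40 and 11.43).

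RNA of other blood cells moved with the subsets. All 8 B cell markers were called lower in Ly6Chigh MCs, with a summed level of 8.25 to 9.35 in Ly6Chigh and 12.35 to 12.61 in Ly6Clow libraries; the most abundant, Ighm, ran from 7.63 to 11.4. All 6 NK cell markers were called lower in Ly6Chigh MCs, with a summed level of 4.33 to 6.47 against 7.11 to 9.44 and Gzma as the most abundant at 3.36 to 8.11. Neutrophil genes were divided. Of 12 neutrophil markers 9 were measured, 6 had positive log2FC, and 3 were called higher in Ly6Chigh MCs (Mmp8, Cd177 and Il1r2). Cxcr2 was lower in each Ly6Chigh library than in any Ly6Clow library (log2FC -1.49, SE 0.35, limma adjusted p = 0.0107), and Ltf (-0.26) and Retnlg (-0.28) were negative without passing. The summed level, led by Cd177 and Mmp8, was 8.74 to 10.83 in Ly6Chigh and 5.04 to 6.84 in Ly6Clow libraries. The most abundant, Cd177, ran from 1.74 to 9.07, the lowest, Ltf, from -2.24 to 2.71, and Ly6g, Camp and Stfa2l1 were not analysed here. The summed neutrophil level was highest in the T2DM library of each subset, at 10.83 in Ly6Chigh MCs (CT 8.74 and 8.78) and 6.84 in Ly6Clow MCs (both CT libraries 5.20). Retnlg (-1.55) and Cxcr2 (2.79) went the other way in Ly6Chigh MCs, with their lowest values of the 8 libraries in T2DM.

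The remaining lists differed less between the subsets. T cell markers summed to 4.09 to 4.92 in Ly6Chigh and 5.46 to 6.15 in Ly6Clow libraries, with 1 of 7 called lower in Ly6Chigh MCs (Lck). Dendritic cell markers summed to 6.11 to 6.97 and 6.91 to 7.80, with 2 of 6 called lower (Zbtb46 and Ccr7). Of 5 platelet and 4 erythroid markers, 0 were called between subsets, at summed levels of 7.54 to 9.59 and 13.33 to 14.48 over the 8 libraries. In bulk samples fewer cells of a type and less RNA per cell cannot be told apart. The part of these cells in the results below was not tested.

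**Figure D1:**
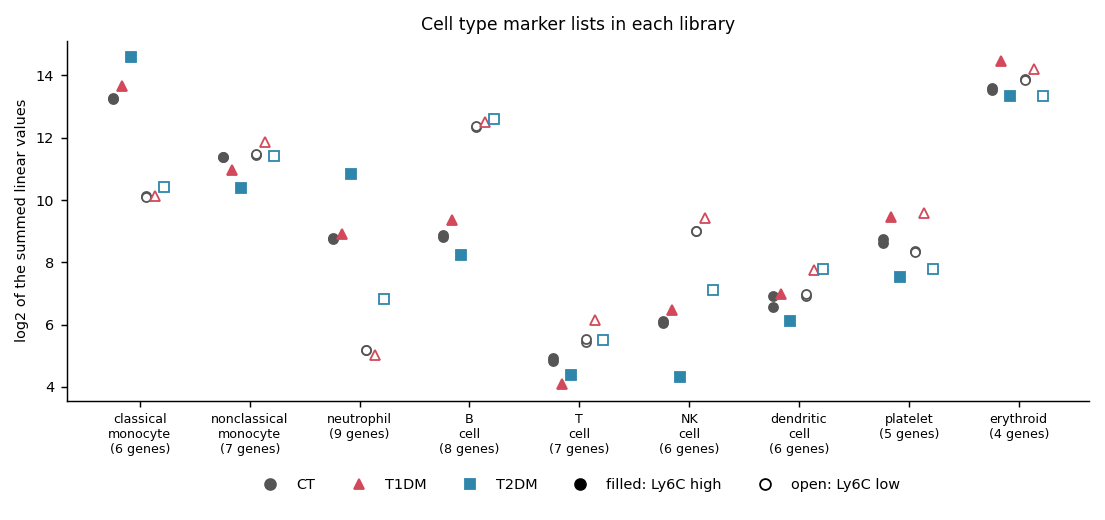
Log2 of the summed linear values (y axis) of 9 marker gene lists (x axis) in the 8 libraries; color and shape give the mouse group, filled symbols Ly6Chigh and open symbols Ly6Clow MCs, and each point is 1 library. The B cell and NK cell sums are lower and the neutrophil sum, which Cd177 and Mmp8 lead, is higher in the Ly6Chigh libraries, and the neutrophil sum is highest in T2DM within each subset.

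The subsets were compared over the 8 libraries with mouse group as a covariate (limma), and a call needed an adjusted p under 0.01 together with an absolute log2FC above 1. The inflammasome sensor Nlrp3 and the antagonist Il1rn were the members that rose in Ly6Chigh MCs, 3.38-fold and 3.77-fold above Ly6Clow MCs. Thus 2 of 10 members were called, both higher, and 0 lower, beside 12.1% of all 16486 genes called (5.37% higher and 6.76% lower). The adaptor Pycard and the caspase Casp4 had adjusted p under 0.01 with log2FC below 1. The 10 members had a median log2FC of 0.31 with 7 above 0, against a median of -0.08 and 44.9% above 0 over all genes. Adjusted p was under 0.05 for 6 members (Nlrp3, Il1rn, Pycard, Casp4, Gsdmd and Casp1) and for 32.9% of all genes. With quantile normalization the differences of Casp1 and Gsdmd fell to 0.07 (limma adjusted p = 0.656) and 0.16 (limma adjusted p = 0.291).

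In the separate libraries, all 4 Ly6Chigh values lay above all 4 Ly6Clow values for Nlrp3, Pycard, Gsdmd and Il1rn, a pattern shown by 16.4% of all genes. Nlrc4 showed the opposite pattern, which 16.3% of all genes showed, and the subsets overlapped for the other 5 members.

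**Figure D2:**
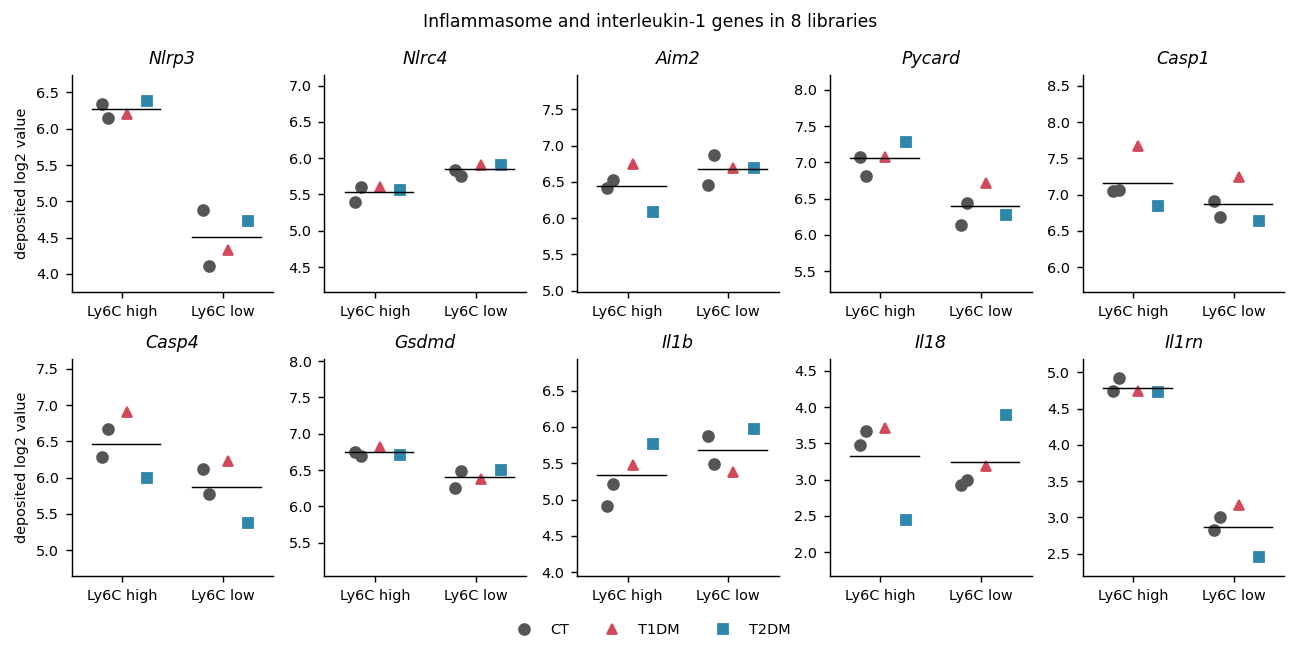
Deposited log2 values (y axis) of the 10 genes in Ly6Chigh and Ly6Clow MCs (x axis); each point is 1 library, circles are CT, triangles T1DM and squares T2DM, lines are means of 4 libraries, and each panel has its own axis of equal span. Nlrp3 and Il1rn show the widest gaps between subsets, Casp1 and Casp4 show T1DM above and T2DM below both CT libraries in each subset, and the T2DM libraries of Il18 lie on opposite sides of the others.

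Among the sensors, Nlrp3 stood at 6.35 and 6.15 (CT), 6.20 (T1DM) and 6.38 (T2DM) in Ly6Chigh MCs and at 4.87 and 4.11 (CT), 4.33 (T1DM) and 4.73 (T2DM) in Ly6Clow MCs. The Ly6Chigh libraries were nearly level, while the CT Ly6Clow libraries alone were 0.762 apart, and the subsets did not overlap. The subset difference was 1.76 on the log2 scale (SE 0.17, limma adjusted p = 0.000101), and within the mouse groups it was 1.75 (CT), 1.87 (T1DM) and 1.65 (T2DM).

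Nlrc4, the sensor of flagellin and secretion system proteins, stood at 5.39 and 5.60 (CT), 5.60 (T1DM) and 5.56 (T2DM) in Ly6Chigh MCs and at 5.84 and 5.76 (CT), 5.91 (T1DM) and 5.90 (T2DM) in Ly6Clow MCs. It was lower in each Ly6Chigh library than in any Ly6Clow library, and the difference of -0.31 (SE 0.11, adjusted p = 0.0523, limma) did not pass the test. The DNA sensor Aim2 stood at 6.42 and 6.52 (CT), 6.75 (T1DM) and 6.09 (T2DM) in Ly6Chigh MCs and at 6.46 and 6.87 (CT), 6.68 (T1DM) and 6.69 (T2DM) in Ly6Clow MCs. The subsets overlapped, and the difference of -0.24 (SE 0.14, adjusted p = 0.229, limma) did not pass. The T2DM Ly6Chigh library was the lowest of the 8 for Aim2.

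Pycard, the adaptor ASC, stood at 7.07 and 6.81 (CT), 7.07 (T1DM) and 7.28 (T2DM) in Ly6Chigh MCs and at 6.14 and 6.44 (CT), 6.72 (T1DM) and 6.27 (T2DM) in Ly6Clow MCs. Ly6Chigh libraries were above Ly6Clow libraries without overlap, by 0.66 (SE 0.13, adjusted p = 0.00527, limma), below the log2FC limit of a call. Of the 31-base sequences of its transcripts, 12.7% also occur in other genes, 12% in Gm45205, so that part of its reads may have been shared between the genes.

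Casp1, the caspase of the canonical inflammasome, stood at 7.05 and 7.07 (CT), 7.67 (T1DM) and 6.85 (T2DM) in Ly6Chigh MCs and at 6.92 and 6.69 (CT), 7.24 (T1DM) and 6.64 (T2DM) in Ly6Clow MCs. Within each mouse group the Ly6Chigh value was the higher, and over mouse groups the subsets overlapped, with a difference of 0.29 (SE 0.09, adjusted p = 0.0436, limma). With quantile normalization the Casp1 difference between subsets in T2DM mice was 0.00057. Casp4, the lipopolysaccharide-responsive caspase-11, stood at 6.28 and 6.67 (CT), 6.90 (T1DM) and 5.99 (T2DM) in Ly6Chigh MCs and at 6.12 and 5.77 (CT), 6.23 (T1DM) and 5.38 (T2DM) in Ly6Clow MCs. It had the same order, with a difference of 0.59 (SE 0.13, adjusted p = 0.00784, limma). For both caspases the spread over mouse groups within a subset was larger than the difference between subsets.

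Gsdmd, the pore protein cleaved by both caspases, stood at 6.75 and 6.70 (CT), 6.82 (T1DM) and 6.70 (T2DM) in Ly6Chigh MCs and at 6.25 and 6.49 (CT), 6.37 (T1DM) and 6.49 (T2DM) in Ly6Clow MCs. The subsets did not overlap, and the difference was 0.34 (SE 0.10, adjusted p = 0.028, limma). With quantile normalization the Gsdmd difference between subsets in T2DM mice was 0.003.

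Among the cytokines, Il1b stood at 4.91 and 5.22 (CT), 5.48 (T1DM) and 5.76 (T2DM) in Ly6Chigh MCs and at 5.88 and 5.50 (CT), 5.38 (T1DM) and 5.97 (T2DM) in Ly6Clow MCs. The highest Ly6Chigh value was the T2DM library and the lowest Ly6Clow value the T1DM library, and the subsets overlapped. The difference of -0.34 (SE 0.17, adjusted p = 0.159, limma) did not pass the test, in the opposite direction to Nlrp3. Il18 stood at 3.47 and 3.66 (CT), 3.71 (T1DM) and 2.45 (T2DM) in Ly6Chigh MCs and at 2.92 and 2.99 (CT), 3.19 (T1DM) and 3.89 (T2DM) in Ly6Clow MCs. Its subset difference of 0.08 had the largest standard error of the 10 members (SE 0.35, adjusted p = 0.893, limma). The T2DM libraries held both its lowest and its highest value.

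Il1rn, the antagonist of the IL-1 receptor, stood at 4.74 and 4.93 (CT), 4.74 (T1DM) and 4.72 (T2DM) in Ly6Chigh MCs and at 2.83 and 3.01 (CT), 3.18 (T1DM) and 2.45 (T2DM) in Ly6Clow MCs. The Ly6Chigh libraries were again nearly level, and the subsets did not overlap. The difference of 1.92 (SE 0.18, adjusted p = 8.69e-05, limma) was called, and within the mouse groups it was 1.92 (CT), 1.56 (T1DM) and 2.27 (T2DM). Nlrp3 and Il1rn remained called in each of 16 alternatives, among them the omission of each single library, with log2FC of 1.605 to 1.91 and 1.779 to 2.033.

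**Figure D3:**
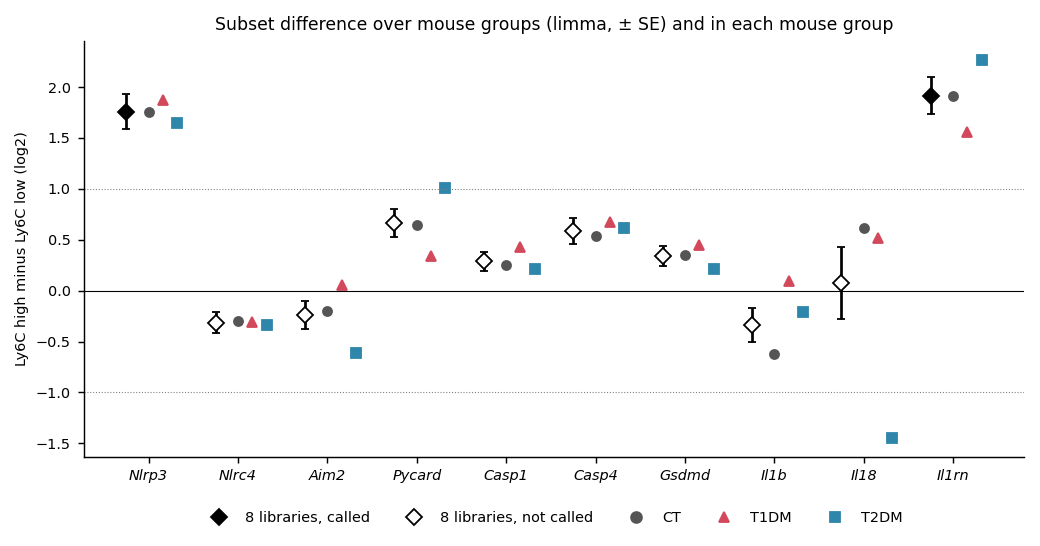
Ly6Chigh minus Ly6Clow in log2 units (y axis) for the 10 genes (x axis); diamonds with bars are the limma estimate over 8 libraries ± SE, filled where called, and the other symbols are the differences within CT, T1DM and T2DM mice, with dotted lines at -1 and 1. Nlrp3 and Il1rn lie above 1 in all 3 mouse groups, and the T2DM difference of Il18 lies at -1.44, opposite to CT and T1DM.

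In the 4 CT libraries alone, which were run on 1 sequencer, 0 of 10 members were called beside 3.52% of all genes. By limma, 6 members had an unadjusted p under 0.05 (37.7% of all genes did), and adjusted p was under 0.05 for 2 members and 20.5% of all genes. Il1rn was higher in CT Ly6Chigh MCs by 1.92 (SE 0.17, adjusted p = 0.011) and Nlrp3 by 1.75 (SE 0.31, adjusted p = 0.0375), the same sizes as over mouse groups with fewer libraries. Il18 was higher by 0.61 (SE 0.18, adjusted p = 0.0999) and Il1b was lower (log2FC -0.62, SE 0.20, adjusted p = 0.121), and neither passed.

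The diabetic models were compared with each other on the same sequencer, as T2DM minus T1DM over both subsets in the fit of all 8 libraries. Both libraries of a model came from the same pooled mice. They are not independent replicates of the model, and the p-values cannot tell the model from its pool. Casp1 and Casp4 were the members with the strongest differences, both lower in T2DM. Casp1 differed by -0.72 (SE 0.13, adjusted p = 0.0323, limma) and Casp4 by -0.88 (SE 0.18, adjusted p = 0.0504, limma), below the log2FC limit, and 0 of 10 members were called beside 0.588% of all genes. Unadjusted p was under 0.05 for 2 members (14.3% of all genes), and adjusted p for 1 member (2.0% of all genes). Over 14 alternatives the adjusted p of Casp1 ran from 0.0252 to 0.232 and that of Casp4 from 0.036 to 0.297, while the log2FC stayed between -0.811 and -0.621 and between -0.936 and -0.825.

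For Casp1 and Casp4, T1DM was above and T2DM below both CT libraries in each subset, an order that 3.11% of all genes showed. The reverse order was shown by 0 of 10 members and 2.32% of all genes. In Ly6Chigh MCs Casp1 differed from the CT mean by 0.61 in T1DM and by -0.21 in T2DM, where the CT libraries were 0.018 apart. Some of the other margins were narrower than the CT gap. In Ly6Clow MCs Casp1 was at 6.64 in T2DM and 6.69 in the nearest CT library, with a CT gap of 0.228. Casp4 was at 6.23 in T1DM and 6.12 in the nearest CT library there, with a CT gap of 0.343. The summed erythroid, platelet and NK cell markers had this order of mouse groups in both subsets as well. The erythroid sum was 14.48 and 14.21 in T1DM (Ly6Chigh and Ly6Clow), 13.53 to 13.88 in the CT libraries and 13.33 in both T2DM libraries. The platelet sum was 9.47 and 9.59 in T1DM, 8.34 to 8.76 in the CT libraries and 7.54 and 7.78 in T2DM. All 4 erythroid genes were lower in T2DM than in T1DM with 0 called, among them Alas2 (log2FC -0.98, SE 0.11, limma adjusted p = 0.00311) and Hbb-bs (-0.99, SE 0.14, limma adjusted p = 0.00995). Of the other lists, 5 of 6 NK cell genes (Ncr1, Klrb1c, Gzma, Nkg7 and Eomes) and the platelet gene Ppbp were called lower in T2DM than in T1DM in this fit, and the neutrophil gene Mmp8 and the classical MC gene F13a1 were called higher; the part of these cells in the caspase values was not tested.

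The other members did not pass between the models. The log2FC was 0.44 for Il1b (SE 0.24, adjusted p = 0.46), 0.29 for Nlrp3 (SE 0.24, adjusted p = 0.66), -0.37 for Il1rn (SE 0.26, adjusted p = 0.586), -0.33 for Aim2 (SE 0.20, adjusted p = 0.514) and -0.28 for Il18 (SE 0.49, adjusted p = 0.866, all limma). Pycard, Gsdmd and Nlrc4 had log2FC between -0.12 and 0.00.

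Between diabetic (T1DM and T2DM together) and CT MCs over both subsets, 0 of 16486 genes were called (0.0%), and 400 genes (2.43%) had an unadjusted limma p under 0.05, among them 0 members. The largest member difference was 0.27 for Il1b (SE 0.17, adjusted p = 1), followed by 0.22 for Pycard (SE 0.13, adjusted p = 1, limma). In the test of whether the subset difference itself differed between diabetic and CT mice, 0 genes were called (0.0%) and 1084 (6.58%) had an unadjusted limma p under 0.05, again with 0 members. This fit took the T1DM and the T2DM library of a subset as replicates of diabetic MCs, so that differences between the models were part of its spread. Of the members Il18 had the largest estimate, -1.08 (SE 0.63, adjusted p = 0.845, limma), and Il1b the next, 0.56 (SE 0.36, adjusted p = 0.856, limma). For Il18 this estimate rested on T2DM mice: it was -2.06 without the T1DM libraries (adjusted p = 0.179) and -0.10 without the T2DM libraries (adjusted p = 0.932, limma).

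Within a subset each diabetic model had 1 library, so those differences have no replicate check and no test. In T1DM 0 of 10 members were past 2-fold against CT, beside 10.1% of all genes in Ly6Chigh and 8.81% in Ly6Clow MCs. The T1DM values were above the CT mean for 8 of 10 members in Ly6Chigh MCs (52.1% of all genes; median 0.13, against 0.02 over all genes) and for 8 of 10 in Ly6Clow MCs (50.3% of all genes; median 0.17, against 0.00). The widest were Casp1 in Ly6Chigh MCs at 0.61 and, in Ly6Clow MCs, Casp1 at 0.44 and Pycard at 0.43. Both comparisons share their CT libraries with those of T2DM.

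In T2DM the only member past 2-fold against CT was Il18, with a difference of -1.12 in Ly6Chigh MCs, beside 13.8% of all genes past 2-fold there. With 1 added on the linear scale this difference was -0.998, and 0 members were past 2-fold. The CT Ly6Chigh libraries of Il18 were 0.191 apart. In Ly6Clow MCs Il18 was higher in T2DM than in CT by 0.93, where the CT libraries were 0.071 apart, and 0 of 10 members passed 2-fold, beside 10.8% of all genes; with quantile normalization Il18 did (1.01). The summed dendritic cell markers were likewise lowest of the 8 libraries in T2DM Ly6Chigh (6.11) and highest in T2DM Ly6Clow MCs (7.80). T1DM Ly6Clow MCs were close to the latter (7.74). Cd209a of this list had the same extremes (2.70 and 6.67). Flt3 went the other way in Ly6Chigh MCs, with its highest value of the 8 libraries in T2DM (5.76). Zbtb46 was lowest in T1DM Ly6Chigh (1.94) and Clec9a highest in T1DM Ly6Clow MCs (4.70). The summed B cell markers were also lowest in T2DM Ly6Chigh (8.25) and highest in T2DM Ly6Clow MCs (12.61). The part of these cells in the Il18 values was not tested. Il1b was above both CT libraries in both subsets, by 0.70 over the CT mean in Ly6Chigh and 0.28 in Ly6Clow MCs. The summed neutrophil level was also highest in T2DM in both subsets (10.83 and 6.84). Retnlg (-1.55) and Cxcr2 (2.79) of the neutrophil list were lowest in T2DM Ly6Chigh MCs. The part of neutrophil RNA in the Il1b values was not tested. The median T2DM difference of the 10 members was -0.07 in Ly6Chigh and 0.07 in Ly6Clow MCs.

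Between the models within a subset, Il18 was lower in T2DM than in T1DM Ly6Chigh MCs (difference -1.26), the only member past 2-fold, beside 19.3% of all genes. In Ly6Clow MCs it was higher in T2DM by 0.70, and 0 of 10 members were past 2-fold, beside 15.3% of all genes. Between subsets within a model, Nlrp3 and Il1rn were past 2-fold in T1DM mice (27.9% of all genes were), and Nlrp3, Il1rn, Pycard and, in the opposite direction, Il18 in T2DM mice (29.1% of all genes). With quantile normalization Pycard was no longer past 2-fold in T2DM mice. Il18 was lower in T2DM Ly6Chigh than in T2DM Ly6Clow MCs (difference -1.44), while it was higher in CT Ly6Chigh MCs by 0.61.

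**Figure D4:**
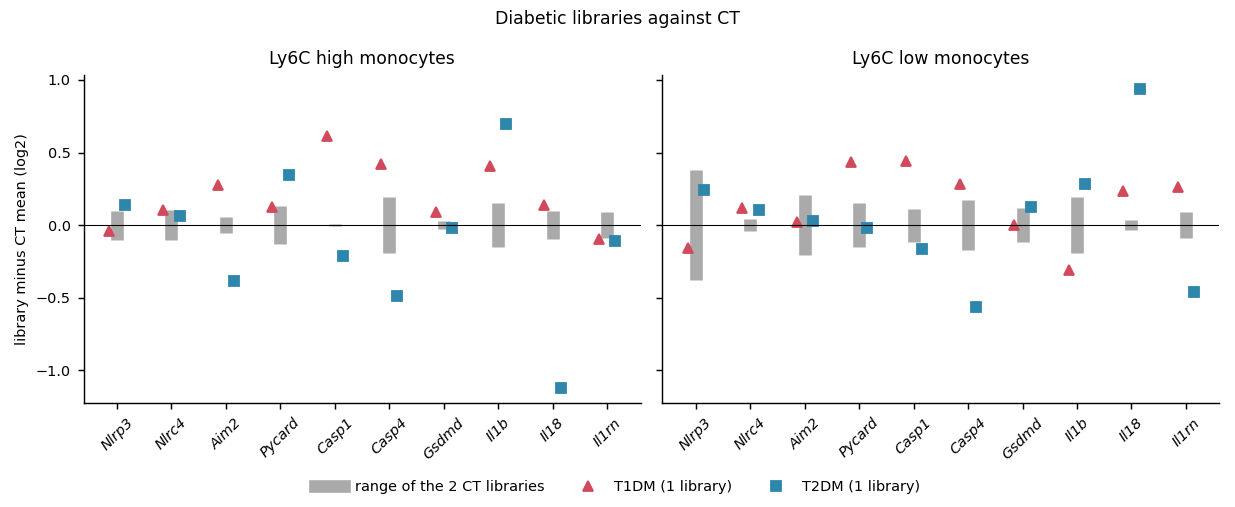
Difference of each diabetic library from the CT mean of its subset in log2 units (y axis) for the 10 genes (x axis), in Ly6Chigh (left) and Ly6Clow MCs (right); triangles are T1DM and squares T2DM, 1 library each, and grey bars span the CT libraries. Casp1 and Casp4 show T1DM above and T2DM below the CT range in both panels, and Il18 in T2DM lies at -1.12 on the left and 0.93 on the right.

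Other genes of the pathway were taken from 5 lists by role. Of 16 further sensors and adaptors, 4 rose and 2 fell in Ly6Chigh MCs over the mouse groups (median log2FC 0.30), beside 5.37% of all genes higher, 6.76% lower and a median of -0.08, which hold for the lists that follow too. Mefv, which encodes the inflammasome sensor pyrin, rose 6.85-fold (log2FC 2.78, SE 0.13, adjusted p = 2.17e-06, limma). It stood at 6.82 and 6.78 (CT), 7.03 (T1DM) and 6.59 (T2DM) in Ly6Chigh MCs and at 3.88 and 4.11 (CT), 4.02 (T1DM) and 4.10 (T2DM) in Ly6Clow MCs, with a wide gap between subsets and little spread within them. The sensors Nlrp1a (log2FC 1.71) and Nlrp1b (1.36), which share 6.78% of the 31-base sequences of Nlrp1a, and the signaling adaptor Card9 (1.14) also rose. Nlrp10 (-1.56) and Nlrc3 (-1.41), the latter known as a negative regulator of innate signaling, fell. The flagellin and needle protein receptors Naip1, Naip2, Naip5 and Naip6 were not called, and 32.8% to 53.1% of their 31-base sequences occur in other genes, so that their values are uncertain.

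Of 13 regulators of assembly and pyroptosis, 2 rose and 1 fell (median 0.31). Ninj1, whose product ruptures the plasma membrane in lytic cell death, rose 4.87-fold (log2FC 2.28, SE 0.20, adjusted p = 5.49e-05, limma), with values of 4.80 to 5.33 in Ly6Chigh and 2.55 to 3.04 in Ly6Clow libraries. P2rx7, the ATP-gated channel that activates NLRP3 through potassium efflux, rose 3.15-fold (log2FC 1.66, SE 0.17, adjusted p = 0.00012, limma). Both showed no overlap between the subsets. Cd36, a scavenger receptor for oxidized lipids, fell 6.98-fold in Ly6Chigh MCs (log2FC -2.80, SE 0.22, adjusted p = 3.11e-05, limma). Nek7, the kinase that binds NLRP3, had a log2FC of -0.09 (adjusted p = 0.416, limma).

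IL-1 family receptors were divided, with 1 of 8 higher and 2 lower in Ly6Chigh MCs (median -0.71). Il1r2, the decoy receptor of IL-1, rose 7.56-fold (log2FC 2.92, SE 0.50, adjusted p = 0.00219, limma), with 2.55 and 1.04 (CT), 0.92 (T1DM) and 3.39 (T2DM) in Ly6Chigh MCs and -0.17 and -1.85 (CT), -1.93 (T1DM) and 0.18 (T2DM) in Ly6Clow MCs. Its CT replicates were more than 1 unit apart in both subsets. Il1r2 is also in the neutrophil list, and it was highest in T2DM in each subset, where the summed neutrophil level was highest. Retnlg and Cxcr2 of that list were lowest in T2DM Ly6Chigh MCs. Whether neutrophil RNA has a part in the Il1r2 values was not tested. The IL-18 receptor chains Il18r1 (log2FC -2.70, SE 0.14, adjusted p = 3.99e-06) and Il18rap (-1.95, SE 0.16, adjusted p = 3.92e-05, limma) fell in Ly6Chigh MCs. Both are known from NK and T cells, and all 6 NK cell markers were lower in the same libraries; the part of NK cell RNA was not tested.

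In receptor signaling, 1 of 12 genes was called. Myd88, the adaptor of IL-1 and Toll-like receptors, rose 2.75-fold in Ly6Chigh MCs (log2FC 1.46, SE 0.11, adjusted p = 2.29e-05, limma), and 8.93% of its 31-base sequences occur in other genes. Its kinase partner Irak4 had a log2FC of 0.99 (SE 0.10, adjusted p = 0.000149, limma), just under the log2FC limit, and 11 of the 12 genes had positive log2FC (median 0.35). Of 8 other IL-1 family ligands and binding proteins looked up by symbol, only Il18bp, the secreted inhibitor of IL-18, was found. Il18bp had a log2FC of 0.15 (adjusted p = 0.621, limma). The symbols Il36a, Il36b, Il36g and Il36rn were also missing from the transcripts used for shared sequence. Their lookup therefore cannot tell whether these genes were measured under other symbols. In CT mice alone Mefv, Nlrp1a, Nlrp1b, Trim30a and Myd88 were called higher and Cd36, Il18r1 and Il18rap lower, beside 3.52% of all genes called. These calls were lost, as were all others in CT mice (0 genes called), without the trend, with the replicate block and without any 1 of the CT libraries. Between T2DM and T1DM, between diabetic and CT, and for the difference of the subset effect, 0 genes of these 5 lists were called.

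**Figure D5:**
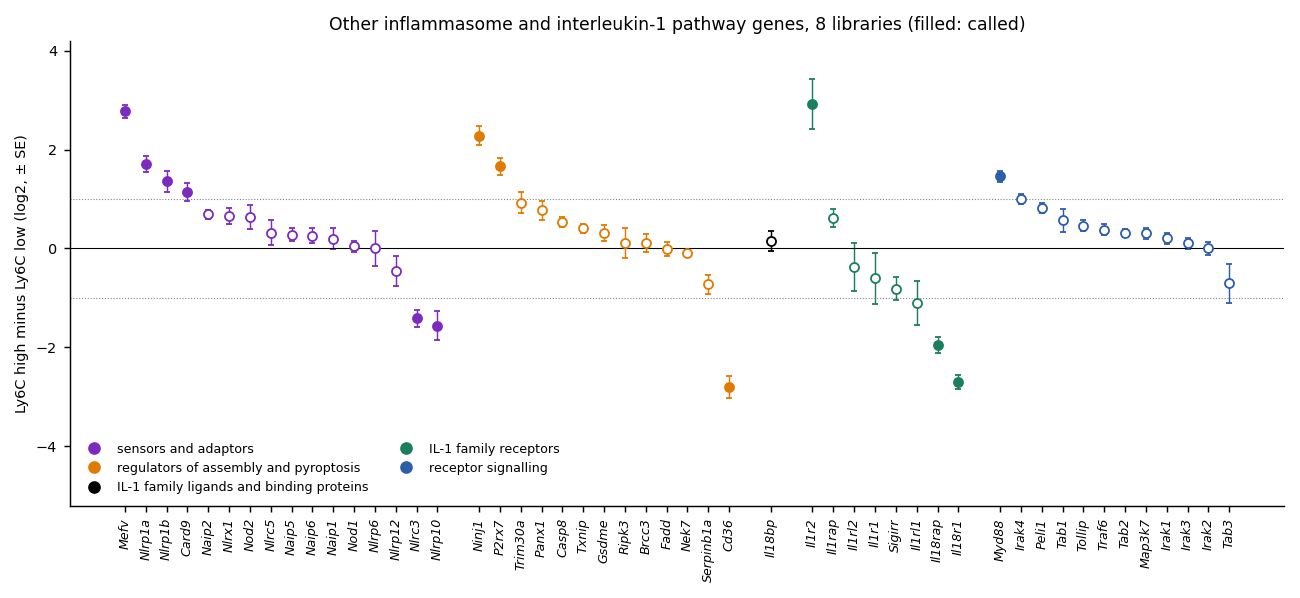
Ly6Chigh minus Ly6Clow over 8 libraries in log2 units (y axis, limma estimate ± SE) for the other genes of the pathway (x axis), colored by list and sorted within it, filled where called, with dotted lines at -1 and 1. Mefv, Ninj1 and Il1r2 are the highest of their lists, and Cd36 and Il18r1 the lowest.

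Single diabetic libraries held some wider differences in these lists, without a test. In T2DM Ly6Chigh MCs, Nlrc5, a regulator of MHC class I genes, differed from the CT mean by -1.73 (5.00 against 6.61 and 6.85). Trim30a, an interferon-induced gene known to restrain NLRP3, differed by -1.37 (6.86 against 8.26 and 8.22), and Il1r2 by 1.60. Of the 31-base sequences of Trim30a, 11.9% occur in other genes, mostly Trim30d. In T1DM Ly6Chigh MCs Ripk3, the necroptosis kinase, was higher by 1.07, at 4.68 against 4.03 and 3.19 in CT, and Il1rl1, the IL-33 receptor, was lower (difference -1.10), at 1.59 against 1.98 and 3.40. In both cases the CT libraries were themselves widely apart. In Ly6Clow MCs Il1rl2, the IL-36 receptor, was higher in T1DM than in CT by 1.30, at 2.54 against 1.62 and 0.86, and its CT libraries were widely apart too. Between T2DM and T1DM, Nlrc5 (-1.92), Trim30a (-1.36), Nod2 (-1.31), Ripk3 (-1.29), Il18r1 (-1.23) and Nlrp1b (-1.14) were lower and Il1r2 (2.47), Tab3 (1.56) and Nlrx1 (1.11) higher in T2DM Ly6Chigh MCs. In Ly6Clow MCs Il1rl2 (-2.11), Il18r1 (-1.19) and the channel gene Panx1 (-1.13) were lower in T2DM.

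The members differed in how they varied over the 8 libraries. Nlrp3 and Il1rn, the members called between the subsets, followed each other (Pearson r = 0.914). Nlrc4 went against Il1rn (r = -0.887), and Casp1 and Casp4 followed each other (r = 0.882). These values describe 8 libraries that share mouse groups and subsets, and are given without a test. The genes most like Il1b among 9213 genes with a mean value of at least 3 were Fyco1 (r = 0.945), Anapc10 (r = 0.944), Vamp2 (r = 0.936), St7 (r = 0.921) and Gm2011 (r = 0.921). For Fyco1 the values were 7.08 and 7.13 (CT), 7.20 (T1DM) and 7.51 (T2DM) in Ly6Chigh MCs and 7.46 and 7.35 (CT), 7.27 (T1DM) and 7.53 (T2DM) in Ly6Clow MCs. As for Il1b, the T2DM library was the highest of each subset and the CT Ly6Chigh libraries were the lowest of all.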

How the data were processed

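RNA-Seq of sorted mouse blood MC subsets was analysed here for 8 libraries, assigned to group and replicate by the sample labels, whose titles the table's columns match. The authors processed reads with Kallisto (version 0.45, mm10) and tximport (version 1.12.3) under R (version 3.6.1) and deposited log2 expression values for 16486 genes (-4.05 to 15.64, with linear values summing to 838696 to 1090019 per library). Per the labels, tximport gave gene counts and TPM values; which of these underlie the deposited log2 values, any further scaling, the low-gene filter and any adjustment between sequencers are not given in the sources used here. The study describes further libraries, not analysed here.

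The log2 values were tested as deposited with limma 3.58.1 (lmFit, eBayes with trend) in R 4.3.3, in an additive model of mouse group and subset over 8 libraries (4 residual degrees of freedom), in the CT libraries alone (2), and, for the difference of the subset effect, in a model of diabetic or CT by subset that takes T1DM and T2DM as replicates (4), with Benjamini-Hochberg adjustment over all 16486 genes and the study's criteria of a call (adjusted p under 0.01, absolute log2FC above 1). Comparisons with 1 library on a side are log2 differences without a test, set against CT means. Cell type levels are log2 of summed linear values. Genes named were the 10 members, genes of the 5 pathway lists that were called, or past 2-fold at a mean log2 value of at least 1 (up to 4 per list and comparison), markers, and the 5 genes most correlated with Il1b; Nek7, Irak4, Il18bp and the Naip genes were added for their role or for shared sequence. Some single markers are not reported here. Members and lists were chosen with earlier results of these data known. Shared sequence is the share of 31-base sequences of GENCODE M21 transcripts found in another gene. The methods were tested on simulated data. Alternatives were a mean log2 value of at least 1, 1 added on the linear scale, quantile normalization, eBayes without trend, a limit of 0.05 on adjusted p, a replicate block, and leaving out CT libraries or diabetic models, and, chosen after seeing the data, single diabetic libraries. Tables and figures used Python 3.11.15, numpy 2.4.6, pandas 2.3.3 and matplotlib 3.10.9.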

Additional observations from a re-analysis of the deposited data

Results flagged for a closer look

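Il18 was the only one of the 10 members whose T2DM libraries differed in opposite directions in the subsets with a difference past 2-fold. The T2DM difference of Ly6Chigh minus Ly6Clow MCs was -1.44 on the log2 scale, opposite in sign to that in T1DM (0.52). The T2DM minus T1DM difference was -1.26 in Ly6Chigh MCs, opposite in sign to that in Ly6Clow MCs (0.70). Each value rests on 1 library per group, and neither of these differences was tested. Il18 had a level of 2.45 to 3.89 in the 8 libraries. The summed dendritic cell markers were also lowest in T2DM Ly6Chigh (6.11) and highest in T2DM Ly6Clow MCs (7.80), close to T1DM Ly6Clow MCs (7.74). Flt3 of this list went the other way, with its highest value of the 8 libraries in T2DM Ly6Chigh MCs (5.76). The summed B cell markers were lowest and highest in the same T2DM libraries (8.25 and 12.61). The part of these cells was not tested.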

How the results depend on the processing

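Over mouse groups, 2 of 10 members (Nlrp3 and Il1rn) were called under all 16 alternatives, with limma adjusted p of 4.55e-05 to 0.00252 and 4.26e-05 to 0.001. In CT mice the count of members called was 1 with the low-value filter, 1 with quantile normalization (Il1rn in both) and 2 at an adjusted p limit of 0.05 (Il1rn and Nlrp3). The count of all genes called in CT mice was 581, and became 1114 with the low-value filter, 1936 at the limit of 0.05, 0 without the trend, 0 with the replicate block and 0 to 0 when 1 CT library was left out. Of the genes called in CT mice, 59.6% were higher in Ly6Chigh MCs, 50.4% with quantile normalization and 43.1% at the limit of 0.05. Quantile normalization moved the median log2FC of all genes from -0.082 to 0.038 over mouse groups and from -0.087 to 0.02 in CT mice. T2DM against T1DM called 97 genes, 26 without the trend, 253 at the limit of 0.05, 62 with the replicate block, and 24 to 146 when 1 library was left out (57 without CT Ly6Clow replicate 1, 31 and 24 without T1DM Ly6Chigh and Ly6Clow, 42 and 146 without T2DM Ly6Chigh and Ly6Clow), with 0 members called throughout. Diabetic against CT called 6 genes with the low-value filter, 6 with 1 added, 7 at the limit of 0.05 and 30 without the T1DM libraries, and the difference of the subset effect 3 at the limit of 0.05. Il18 in T2DM against CT Ly6Chigh MCs was not past 2-fold with 1 added (-0.998), which left 0 members, and in Ly6Clow MCs it was past 2-fold with quantile normalization, which gave 1 member. The causes of these changes were not tested.

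The sign changed only for members far from a call. The subset difference of Il18 ran from -0.0720 to 0.582 when 1 library was left out, and was -0.0701, -0.0463 and -0.0177 without CT Ly6Chigh replicate 2, CT Ly6Clow replicate 1 and CT Ly6Clow replicate 2, and -0.0720 without the T1DM libraries or either of them. In CT mice Aim2 ran from -0.403 to 0.00908, the latter without CT Ly6Clow replicate 2. When 1 diabetic library was left out, T2DM minus T1DM ran from -1.29 to 0.732 for Il18 (0.0138 without T1DM Ly6Chigh), from -0.351 to 0.114 for Pycard (0.0943 without T1DM Ly6Clow) and from -0.0830 to 0.0920 for Gsdmd (-0.0652 without T1DM Ly6Clow). Of the values of single members and of background counts under other settings, 732 kept direction and side of the threshold (or stayed within the replicate spread), 27 untested ones moved by more, and 4 became called, the Il1rn and Nlrp3 calls in CT mice. Replicate numbers of CT libraries did not pair them: replicate 1 minus replicate 2 correlated at r = 0.009 between the subsets over 16486 genes, and with the replicate block Nlrp3 and Il1rn stayed called over mouse groups. With 1 library per model and subset and no counts, the reads behind each value and the spread between mice are unknown.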
